A study of Mus musculus with 6 samples.

Results

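The p53 pathway and the Bcl2 family decide, in many tissues, whether a damaged or misplaced cell dies. To see where these genes stood in male gonads that lack NANOS2, 10 genes were followed by name, namely *Trp53*, *Mdm2*, *Cdkn1a*, *Bbc3*, *Pmaip1*, *Bax*, *Bak1*, *Bcl2*, *Bcl2l1* and *Mcl1*. Every non-control probe whose design accession belongs to 1 of these genes was taken, which gave 17 probes. All 17 were tested, among 26712 tested probes for 12983 genes. On all 6 arrays each of the 17 was well above background.

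The p53 protein, encoded by *Trp53*, is a transcription factor that is held at a low level by MDM2, a ubiquitin ligase whose own gene p53 switches on. Once p53 is released it can stop the cell cycle through *Cdkn1a* and can turn on *Bbc3*, *Pmaip1* and *Bax*. BBC3 (PUMA) and PMAIP1 (NOXA) are BH3-only proteins. PUMA blocks the guardians BCL2, BCL2L1 (BCL-XL) and MCL1, and NOXA binds MCL1, so that BAX and BAK1 can open the outer mitochondrial membrane. In the fetal testis *Bax* and the *Bcl2* family are known to set how many gonocytes survive. Gonocytes without NANOS2, an RNA-binding protein of male germ cells, are later lost by apoptosis. Much of this pathway is run by protein stability, location and phosphorylation, none of which an array of RNA can measure.

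The arrays held total RNA of whole male gonads of mouse embryos at E14.5, with 2 arrays a genotype. All embryos had a mixed ICR and N2 background and carried at least 1 knockout allele of *Nanos2*, since the control was the heterozygote (*Nanos2* +/−) and no wild type was among the arrays. *Nanos2* −/− gonads had no intact allele. *Nanos2* −/−_Tg+ gonads were *Nanos2* −/− and carried a transgene for 3×FLAG-tagged NANOS2-ΔN10, a form that lacks the N-terminal stretch through which NANOS2 binds the CCR4-NOT deadenylase. The transgene was driven by the *Nanos2* enhancer, which is active in germ cells, only part of the gonad. Neither the labels nor the methods say whether gonads were pooled for an array. In such bulk RNA, fewer cells of a type and less RNA per cell cannot be told apart. The *Nanos2* probe followed the labels: its log2 signal was 9.43 and 10.79 on the *Nanos2* +/− arrays, not well above background in *Nanos2* −/−, and 13.3 and 14.26 on the *Nanos2* −/−_Tg+ arrays. From *Nanos2* +/− to *Nanos2* −/− its signal thus dropped at least 89.7-fold (limma adjusted p = 0.00197).

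Values below are log2 signals after each array had been scaled to a common 50th percentile, and they are given in the order replicate 1, replicate 2. They rank arrays for 1 probe and not genes against each other. Differences between genotypes were tested with limma over all 26712 probes, with p-values adjusted by Benjamini-Hochberg, and a call required an adjusted p below 0.05 and 2-fold. One slide held both *Nanos2* +/− arrays and another slide the remaining 4, which means that effects of genotype and slide cannot be told apart where *Nanos2* +/− is compared. With 2 arrays against 2 an exact permutation test of a single probe cannot go below a two-sided p of 0.333. *Nanos2* +/− replicate 1 stood apart from replicate 2: the replicates of this genotype differed by a median of 0.332 over all probes, against 0.198 in *Nanos2* −/− and 0.183 in *Nanos2* −/−_Tg+. All 10 genes, by their brightest probe, read lower on *Nanos2* +/− replicate 1 than on replicate 2, as did 71.9% of all tested probes, and the median gap was -0.45 for the 10 genes and -0.23 for all probes. Replicate 1 also read lower in the other genotypes, for 66.6% of all probes in *Nanos2* −/− and 57.9% in *Nanos2* −/−_Tg+. In each of these it was lower for 7 of the 10 genes. *Nanos2* +/− replicate 2 had the largest scaling factor, 1.29, and its part in the gap was not tested.

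To show the DNA that p53 could read next to these genes, the 250 bases before each listed RefSeq start (GRCm38.p6) were searched for the p53 half-site consensus. It is 10 bases long, with 3 purines, a C, 2 bases that are A or T, a G and then pyrimidines, and it reads the same on both strands. *Pmaip1* was left out of this search, so its sites are not known here. The other 9 genes had 14 windows in all, and 4 of these windows, of 4 genes, held a half-site. Among all 32851 windows of this length, 7.13% held one. Of the *Cdkn1a* windows, that at chr17:29093519-29093768 held 0 half-sites. The other held 2, from -73 to -64 and from -51 to -42 bases before its start. Such a pair, no more than 13 bases apart, lay in 21 windows or 0.0639% of all. *Mdm2* held 1 half-site from -186 to -177, *Bax* 1 from -201 to -192, and *Trp53* 1 from -75 to -66 (GGACTTGCCC). A match of letters is a description and not a bound site. The windows of the targets with a match are shown, read 5′ to 3′ on the strand of the gene with the half-sites in capitals. That of *Cdkn1a* lies at chr17:29090729-29090978 on the plus strand, that of *Mdm2* at chr10:117710759-117711008 on the minus strand and that of *Bax* at chr7:45466899-45467148 on the minus strand.

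Cdkn1a: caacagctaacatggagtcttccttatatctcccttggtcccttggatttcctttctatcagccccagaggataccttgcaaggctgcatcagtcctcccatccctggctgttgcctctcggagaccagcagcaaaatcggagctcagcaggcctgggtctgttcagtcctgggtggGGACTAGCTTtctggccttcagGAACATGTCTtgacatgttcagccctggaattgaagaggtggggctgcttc

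Mdm2: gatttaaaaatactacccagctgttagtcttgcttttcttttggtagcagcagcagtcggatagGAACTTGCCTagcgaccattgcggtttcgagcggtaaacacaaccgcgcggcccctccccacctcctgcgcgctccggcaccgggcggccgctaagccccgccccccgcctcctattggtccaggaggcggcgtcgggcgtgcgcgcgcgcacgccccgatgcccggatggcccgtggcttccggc

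Bax: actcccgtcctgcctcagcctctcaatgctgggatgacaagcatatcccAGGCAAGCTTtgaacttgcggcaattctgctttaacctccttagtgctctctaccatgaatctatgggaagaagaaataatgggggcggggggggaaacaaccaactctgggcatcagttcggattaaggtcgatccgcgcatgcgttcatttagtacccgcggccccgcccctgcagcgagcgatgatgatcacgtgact

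None of the 10 genes was called in any of the 3 comparisons. Between *Nanos2* −/− and *Nanos2* +/−, 18 of all 26712 probes were called, or 0.0674%. The share was 0.105% (28 probes) between *Nanos2* −/−_Tg+ and *Nanos2* +/− and 0.0187% (5 probes) between *Nanos2* −/−_Tg+ and *Nanos2* −/−. Without adjustment, a limma p below 0.05 was reached by 0, 1 and 0 of the 10 genes in these comparisons, the 1 being *Pmaip1*, and by 9.08, 11.6 and 2.74% of all tested probes. Over all 17 probes it was reached by 1, 1 and 0, with a dimmer *Bcl2l1* probe in the first comparison. The methods' t-test (no adjustment, 2-fold limit) listed 0 of the 10 in each, against 0.573, 0.88 and 0.15% of all probes. The median difference of the 10 genes was -0.08, 0.01 and 0.1 on the log2 scale, against -0.04, -0.01 and 0.03 over all tested probes. In each comparison the 95% interval of 9 of the 10 lay within 2-fold in either direction, and that of *Pmaip1* did not. The arrays of the compared genotypes did not overlap for 4 (*Bcl2l1*, *Mdm2*, *Pmaip1* and *Trp53*), 1 (*Bcl2l1*) and 3 (*Bak1*, *Bcl2l1* and *Mdm2*) of the 10 genes, while 36, 38.9 and 31.4% of all tested probes were so separated. Over all 17 probes of the 10 genes it was 8, 6 and 8.

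**Figure D1:**
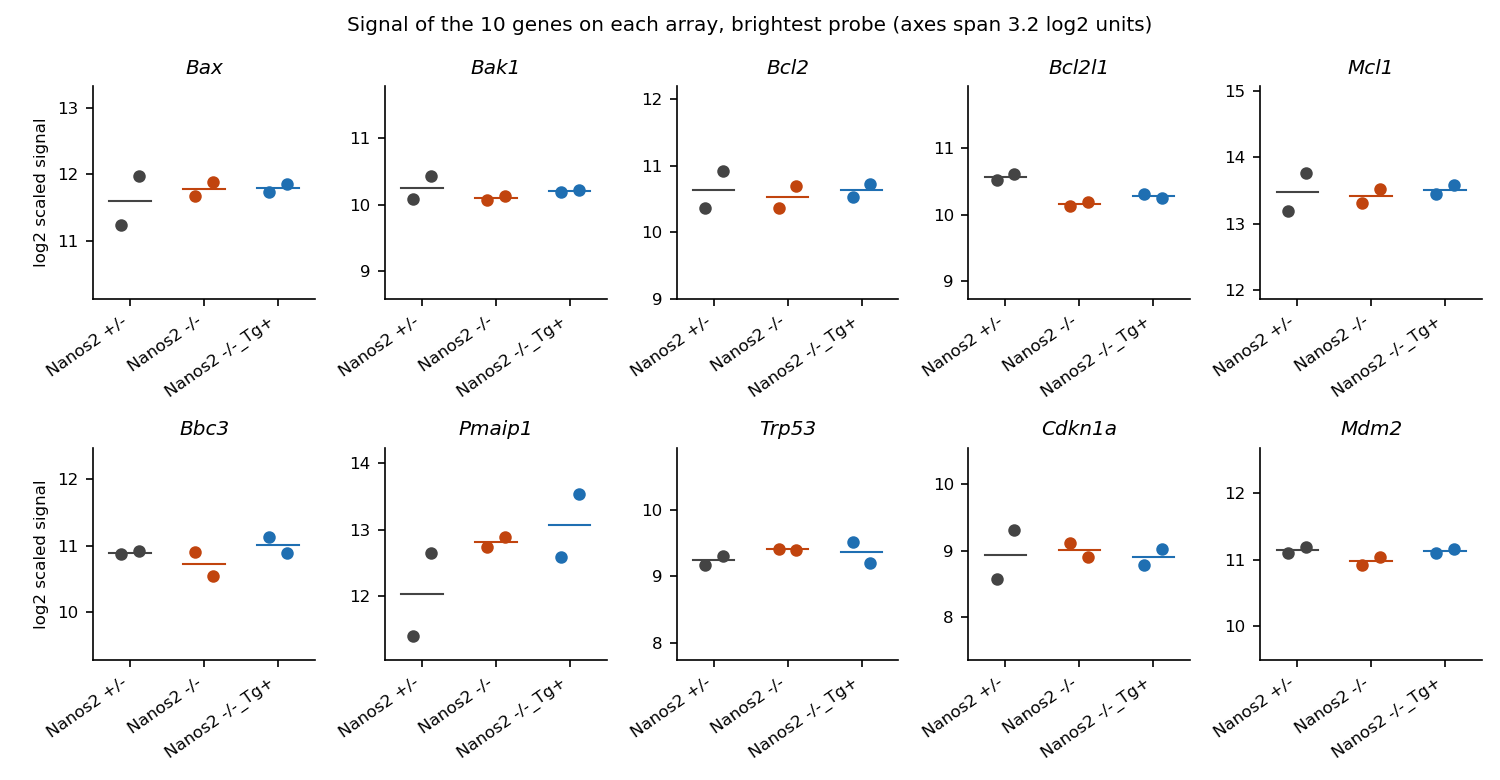
Log2 scaled signal of each of the 10 genes on the 6 arrays (brightest probe; points are arrays, replicate 1 on the left, and lines are genotype means). *Pmaip1* has the widest spread, from 11.41 on *Nanos2* +/− replicate 1 to 13.54 on *Nanos2* −/−_Tg+ replicate 2, while *Mdm2* stays between 10.93 and 11.2.

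*Trp53* itself, which encodes p53, showed no order of the genotypes that its probes shared. Its brighter probe read 9.17 and 9.31 in *Nanos2* +/−, 9.41 and 9.4 in *Nanos2* −/−, and 9.52 and 9.2 in *Nanos2* −/−_Tg+. The *Nanos2* −/− arrays lay above the *Nanos2* +/− arrays by 0.17 ± 0.195 (SE, n = 2 a genotype; limma adjusted p = 0.861), and the *Nanos2* −/−_Tg+ arrays spanned both. The other *Trp53* probe, printed as 10 spots on each array, was lowest in *Nanos2* −/−_Tg+, at 8.56 and 8.71, against 8.99 and 8.85 in *Nanos2* +/− and 8.99 and 8.76 in *Nanos2* −/−. This put it 0.28 under *Nanos2* +/− (log2 difference -0.28, limma adjusted p = 0.638), while the brighter probe was 0.12 above. The design accession is the same for both probes.

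*Mdm2*, the inhibitor and at the same time a target of p53, was the steadiest of the 10 by its brighter probe. It read 11.11 and 11.2 in *Nanos2* +/−, 10.93 and 11.04 in *Nanos2* −/−, and 11.1 and 11.16 in *Nanos2* −/−_Tg+. *Nanos2* −/− thus lay under both other genotypes without overlap, by a log2 difference of -0.17 ± 0.177 (SE) from *Nanos2* +/−, which is no larger than its error. The 10-spot probe of *Mdm2* gave another order, with 8.12 and 8 in *Nanos2* +/−, 7.73 and 7.91 in *Nanos2* −/−, and 7.61 and 7.7 in *Nanos2* −/−_Tg+. By that probe *Nanos2* −/−_Tg+ was the lowest, with a log2 difference of -0.4 from *Nanos2* +/− (95% interval -0.83 to 0.02; limma adjusted p = 0.456). Both probes placed *Nanos2* −/− under *Nanos2* +/−, and they disagreed on *Nanos2* −/−_Tg+ against *Nanos2* −/−.

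*Cdkn1a*, which encodes the cell cycle inhibitor p21 and is the target most often read as a sign of p53 activity, did not separate the genotypes. Its 10-spot probe read 8.57 and 9.31 in *Nanos2* +/−, 9.12 and 8.9 in *Nanos2* −/−, and 8.79 and 9.02 in *Nanos2* −/−_Tg+. Both extremes were *Nanos2* +/− arrays, and every other array lay between them. The log2 difference of *Nanos2* −/− from *Nanos2* +/− was 0.06 (95% interval -0.57 to 0.7), that of *Nanos2* −/−_Tg+ was -0.04 (-0.67 to 0.59), and limma adjusted p was 0.97 and 0.974.

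*Pmaip1*, which encodes the BH3-only protein NOXA that binds MCL1, had the largest differences of the 10 genes from *Nanos2* +/−. Its only probe, a single spot, gave 11.41 and 12.66 in *Nanos2* +/−, 12.74 and 12.89 in *Nanos2* −/−, and 12.6 and 13.54 in *Nanos2* −/−_Tg+. Both *Nanos2* −/− arrays lay above both *Nanos2* +/− arrays, though by little over replicate 2, and *Nanos2* −/−_Tg+ overlapped with both other genotypes. *Nanos2* −/− stood 1.72-fold over *Nanos2* +/− (95% interval 0.846 to 3.48) and *Nanos2* −/−_Tg+ 2.05-fold (1.01 to 4.16). The corresponding log2 differences were 0.78 ± 0.438 and 1.03 ± 0.438 (SE, n = 2 a genotype), with limma adjusted p of 0.675 and 0.425. Neither passed the test.

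The size of the *Pmaip1* differences depended on single arrays. Without *Nanos2* +/− replicate 1 they dropped to 0.16 and 0.41 on the log2 scale, and without replicate 2 they were 1.4 and 1.66. The difference of *Nanos2* −/−_Tg+ from *Nanos2* +/− was 0.57 without *Nanos2* −/−_Tg+ replicate 2 and 1.5 without replicate 1. For this probe *Nanos2* +/− replicate 1 minus replicate 2 was -1.24, and 97.6% of tested probes differed less between these arrays. The replicates of *Nanos2* −/−_Tg+ also lay far apart, by -0.93 in the same direction, with 96.5% of probes closer together. In *Nanos2* −/− this gap was -0.15. The summed signal of 10 germ cell markers (*Ddx4*, *Dazl*, *Mael*, *Pou5f1*, *Dppa3*, *Dppa5a*, *Dnd1*, *Tdrd1*, *Kit* and *Rhox6*) was lowest on the same *Nanos2* +/− replicate 1, at 161000, against 271000 on replicate 2. It was 223000 and 254000 in *Nanos2* −/− and 248000 and 258000 in *Nanos2* −/−_Tg+. Of the 10 markers 8 were lower on *Nanos2* +/− replicate 1 than on replicate 2, and *Dppa5a* (15.58 and 16.87) and *Dppa3* (14.87 and 15.96) carried most of the gap between the sums. Without these, which were picked after their values had been seen, the sum of the other 8 was 82400 and 88000 in *Nanos2* +/−, 61000 and 75100 in *Nanos2* −/−, and 79100 on each *Nanos2* −/−_Tg+ array, so that *Nanos2* +/− replicate 1 was no longer lowest. Sums of other cell types were also lowest on *Nanos2* +/− replicate 1, at 126000 against 187000 on replicate 2 for 8 Sertoli cell markers and 286 against 1120 for 3 mesonephros markers. Leydig cell, erythroid, endothelial and macrophage sums were lowest on other arrays. The part of any of these markers in the *Pmaip1* values was not tested.

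*Bbc3*, which encodes PUMA, the other BH3-only protein of the 10, read 10.87 and 10.92 in *Nanos2* +/−, 10.91 and 10.54 in *Nanos2* −/−, and 11.13 and 10.89 in *Nanos2* −/−_Tg+. All genotypes overlapped with each other. Its largest difference, between *Nanos2* −/−_Tg+ and *Nanos2* −/−, was 0.29 ± 0.207 on the log2 scale. *Bbc3* and *Pmaip1*, both p53 targets, thus gave log2 differences of -0.17 and 0.78 for *Nanos2* −/− over *Nanos2* +/−, and neither was called.

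Of the effectors that open the mitochondrial membrane, *Bax* had values of 11.24 and 11.97 in *Nanos2* +/−, 11.68 and 11.89 in *Nanos2* −/−, and 11.74 and 11.85 in *Nanos2* −/−_Tg+. The 4 arrays without intact *Nanos2* alleles lay inside the span of the *Nanos2* +/− arrays. Both differences from *Nanos2* +/− were 0.19 ± 0.264 (SE) on the log2 scale, which gives a 95% interval of 0.743 to 1.74-fold for *Nanos2* −/−. *Nanos2* −/−_Tg+ and *Nanos2* −/− had the same *Bax* mean of 11.79, with an interval of 0.655 to 1.54-fold. Leaving out *Nanos2* +/− replicate 1 turned the *Bax* differences from *Nanos2* +/− to -0.18.

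*Bak1*, the second effector, had 2 probes that went opposite ways. The brighter read 10.08 and 10.43 in *Nanos2* +/−, 10.07 and 10.13 in *Nanos2* −/−, and 10.19 and 10.22 in *Nanos2* −/−_Tg+. The dimmer read 7.13 and 7.45, 7.5 and 7.6, and 7.36 and 7.59 in the same order. *Nanos2* −/− minus *Nanos2* +/− was therefore -0.16 by the one and 0.26 by the other (log2 differences), with limma adjusted p of 0.868 and 0.773. By the brighter probe these genotypes overlapped, and by the dimmer both *Nanos2* −/− arrays lay above both *Nanos2* +/− arrays.

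Among the guardians, *Bcl2l1*, which encodes BCL-XL, was the only gene of the 10 whose probes all gave the same non-overlapping order in every comparison. The brightest of its 3 probes, with 10 spots per array, read 10.52 and 10.61 in *Nanos2* +/−, 10.13 and 10.2 in *Nanos2* −/−, and 10.31 and 10.26 in *Nanos2* −/−_Tg+. The next read 8.8 and 8.85, 8.38 and 8.4, and 8.55 and 8.53, and the dimmest 6.46 and 6.36, 6.13 and 5.92, and 6.15 and 6.21. By each probe *Nanos2* +/− was highest, *Nanos2* −/− lowest and *Nanos2* −/−_Tg+ between them. In single comparisons 36, 38.9 and 31.4% of all tested probes were separated, and the share separated in all 3 was not counted.

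The log2 differences of *Nanos2* −/− from *Nanos2* +/− were -0.4, -0.44 and -0.38 for the 3 *Bcl2l1* probes, or 1.32, 1.35 and 1.3-fold lower. The differences of *Nanos2* −/−_Tg+ from *Nanos2* +/− were -0.28, -0.28 and -0.23. *Nanos2* −/−_Tg+ exceeded *Nanos2* −/− by 0.12, 0.15 and 0.15. None was called: limma adjusted p was 0.563, 0.508 and 0.607 for *Nanos2* −/− against *Nanos2* +/−, and at least 0.596 in the other comparisons. The difference stays under 2-fold, and the 95% interval runs from 0.57 to 1.01-fold for the brightest probe, 0.558 to 0.978-fold for the next and 0.57 to 1.03-fold for the dimmest. The methods' t-test, without adjustment, gave p of 0.0183, 0.00357 and 0.082 for *Nanos2* −/− against *Nanos2* +/−. It gave 0.031, 0.0092 and 0.06 for *Nanos2* −/−_Tg+ against *Nanos2* +/−, and no probe reached its 2-fold limit. The share of all tested probes with such a p, without that limit, was not counted. The probes share RNA extracts and arrays, so their accord adds no replicates. With normexp background correction the brightest probe gave 0.46 and 0.54 for *Nanos2* −/− and *Nanos2* −/−_Tg+ over *Nanos2* +/−, a setting under which the median of all probes moved to 0.56 and 0.52.

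*Bcl2*, which gave the family its name, differed little between the genotypes. Its 10-spot probe gave 10.36 and 10.92 in *Nanos2* +/−, 10.36 and 10.69 in *Nanos2* −/−, and 10.53 and 10.73 in *Nanos2* −/−_Tg+, so that no array lay outside the printed span of the *Nanos2* +/− arrays. The second *Bcl2* probe, designed on another accession of the gene, read 9.65 and 9.75, 9.75 and 9.44, and 9.59 and 9.62. For *Nanos2* −/− against *Nanos2* +/− the probes gave log2 differences of -0.11 and -0.1.

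*Mcl1*, the guardian that NOXA binds, stood at 13.2 and 13.76 in *Nanos2* +/−, 13.32 and 13.53 in *Nanos2* −/−, and 13.45 and 13.58 in *Nanos2* −/−_Tg+ by its brighter probe. Again the *Nanos2* +/− arrays enclosed all others. The second *Mcl1* probe read 11.29 and 11.79, 11.56 and 11.73, and 11.76 and 11.83 in that order. Log2 differences from *Nanos2* +/− ran from -0.05 to 0.26 over both probes and both comparisons, and the arrays overlapped with *Nanos2* +/− in each case.

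**Figure D2:**
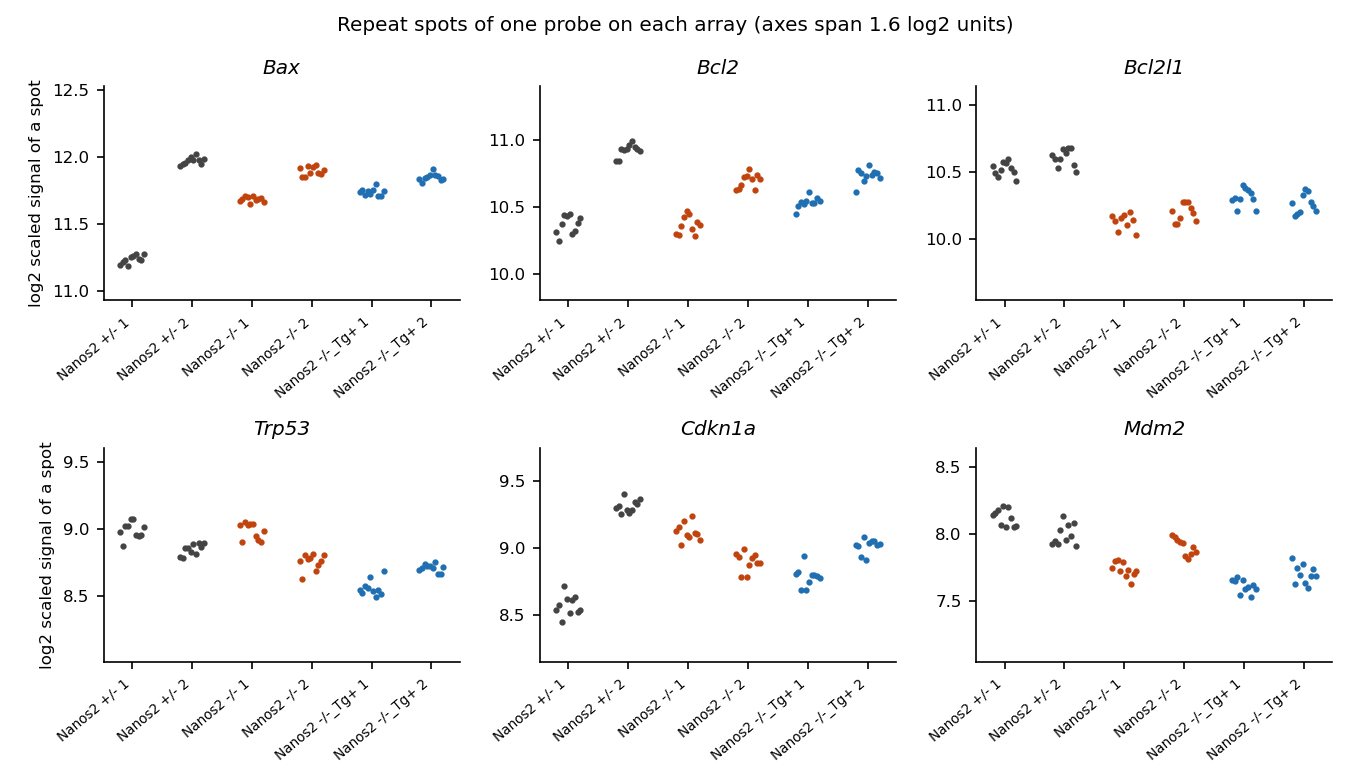
Log2 scaled signal of the repeat spots of the 6 probes that were printed 9 or 10 times on each array after outlier spots were left out (points are spots, grouped by array). Spots of 1 array lie close together, with SDs of 0.0196 to 0.0776, while arrays of 1 genotype can lie much farther apart, as for *Bax* and *Cdkn1a* in *Nanos2* +/−.

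Repeat spots of 1 probe were compared with repeat arrays of 1 genotype. Within an array the SD over spots was 0.0196 to 0.0776 on the log2 scale, with a median of 0.0584, over 36 combinations of 6 probes and 6 arrays. The gap between the *Nanos2* +/− arrays was far wider for *Bax* (11.24 and 11.97) and *Cdkn1a* (8.57 and 9.31). For *Bcl2l1* the *Nanos2* +/− arrays lay closer together (10.52 and 10.61), where single spots of that probe had an SD of 0.0522 to 0.0722. An array value is a mean over 10 such spots, so this SD is not its error. Spots of 1 array are not replicates of a genotype, and the tests used their mean.

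**Figure D3:**
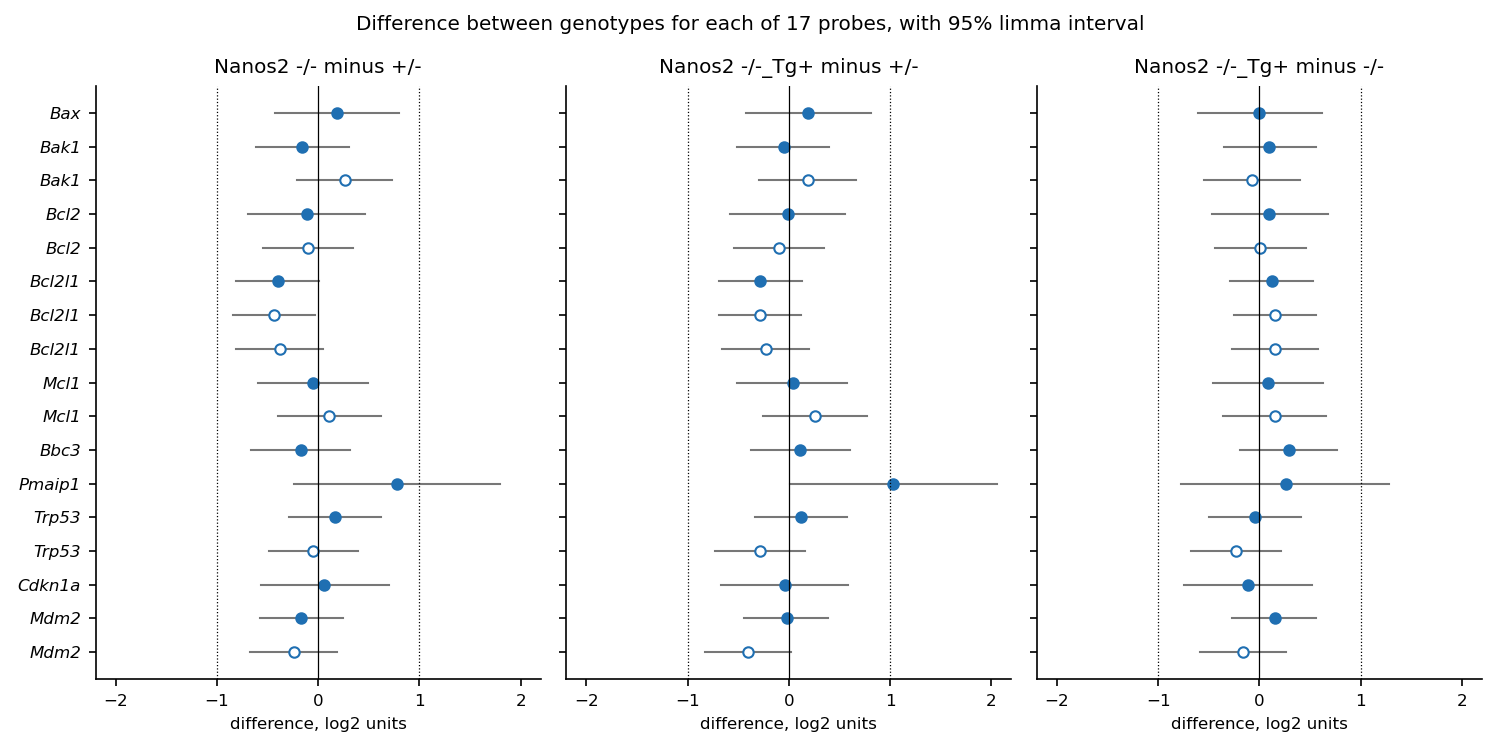
Log2 difference between genotypes for each of the 17 probes, with its 95% interval from limma (filled points are the brightest probe of a gene, open points its other probes, dotted lines 2-fold). Intervals of *Pmaip1* reach from -0.24 to 1.8 and from 0.01 to 2.06 against *Nanos2* +/−, and the 3 *Bcl2l1* probes lie together on the negative side in both.

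Between the *Nanos2* −/−_Tg+ and *Nanos2* −/− gonads, which shared a slide, the differences of the 10 genes had the narrowest range, as had all tested probes. Their log2 differences ran from -0.11 (*Cdkn1a*) to 0.29 (*Bbc3*), 8 were above 0 and 2 under it, and limma adjusted p was 1 for each. All tested probes had a median of 0.03 and a central 95% of -0.58 to 0.52. Against *Nanos2* +/− that central 95% was -0.81 to 0.72 for *Nanos2* −/− and -0.89 to 0.79 for *Nanos2* −/−_Tg+. A fit of the 4 arrays of *Nanos2* −/−_Tg+ and *Nanos2* −/− alone also called 0 of the 10. This comparison asks whether NANOS2-ΔN10 moved the genes in the absence of NANOS2. At 2 arrays a genotype its 95% intervals leave room for differences such as 0.831 to 1.47-fold for *Mdm2* and 0.588 to 2.42-fold for *Pmaip1*.

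Wider lists of the pathway were read in the same way, each gene by its brightest probe. No gene of the 4 lists was called in any comparison, in either direction, and the methods' t-test with its 2-fold limit listed 0 of them. Without adjustment, at most 2 genes of a list reached a limma p below 0.05 in a comparison, beside the 9.08, 11.6 and 2.74% of all probes given above.

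Of 12 p53 regulators 10 were tested, and *Atr* and *Usp7* were not matched to a probe. Their median log2 difference was -0.05 for *Nanos2* −/− and 0.04 for *Nanos2* −/−_Tg+ against *Nanos2* +/−, and 0.06 between the last pair. Arrays did not overlap for 5, 5 and 3 of the 10, beside 36, 38.9 and 31.4% of all tested probes. *Ppp1r13b* (ASPP1), a protein that steers p53 towards apoptotic targets, read 11.66 and 11.89 in *Nanos2* +/−, 11.14 and 11.41 in *Nanos2* −/−, and 11.22 and 11.26 in *Nanos2* −/−_Tg+. Both *Nanos2* +/− arrays lay above the other 4, with log2 differences of -0.5 and -0.54 (limma adjusted p = 0.506 and 0.348). *Ppm1d*, the phosphatase WIP1 that damps p53 signalling, was also lower outside *Nanos2* +/−, by log2 differences of -0.43 and -0.31. *Trp73*, a relative of p53, stood 0.4 and 0.45 above *Nanos2* +/− at a low signal of 5.98 to 6.55. The checkpoint kinase gene *Chek1* and *Trp63*, another relative of p53, had their widest gap, 0.22 each, between *Nanos2* −/−_Tg+ and *Nanos2* −/−.

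Of 22 further p53 targets 21 were tested, and *Eda2r* was not well above background on any array. Their median log2 difference was 0.04, 0.13 and 0.13 in the 3 comparisons in the order above, and 12, 16 and 16 of 21 lay above 0. The median over all tested probes was -0.04, -0.01 and 0.03. Arrays did not overlap for 4, 10 and 8 of the 21, against the 36, 38.9 and 31.4% of all probes given above. The genes were read on the same arrays, so their signs are not independent of each other. *Trp53inp1*, a p53-induced nuclear protein that promotes cell death, had the largest differences of the list from *Nanos2* +/−. It stood at 11.1 and 11.66 in *Nanos2* +/−, 11.72 and 12.06 in *Nanos2* −/−, and 12.15 and 12.13 in *Nanos2* −/−_Tg+. The 3 genotypes did not overlap, with log2 differences from *Nanos2* +/− of 0.5 and 0.76 (limma adjusted p = 0.605 and 0.284). *Fas*, a death receptor, read 6.81 and 6.11, 6.53 and 6.77, and 6.98 and 7.13, so that *Nanos2* −/−_Tg+ lay above both other genotypes, by 0.59 over *Nanos2* +/− (limma adjusted p = 0.448). *Ddb2*, a DNA damage sensor of nucleotide excision repair, had overlapping arrays in the comparison in which it differed most (0.44 for *Nanos2* −/− over *Nanos2* +/−). *Perp*, an epithelial adhesion protein and p53 effector, was 0.32 higher in *Nanos2* −/−_Tg+ than in *Nanos2* −/−, with adjusted p of 1 by limma.

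Of 15 other members of the *Bcl2* family 9 were tested. *Bcl2l10*, *Bcl2l14* and *Hrk* were not well above background on any array, and *Bcl2a1a*, *Bcl2a1d* and *Bok* were not matched. The 9 had median log2 differences of 0.03, -0.02 and -0.05, and 2, 1 and 3 of them did not overlap, beside 36, 38.9 and 31.4% of all tested probes. *Bmf*, a BH3-only gene, had values of 11.41 and 11.72 in *Nanos2* +/− against 11.13 and 11.28 in *Nanos2* −/−, a difference of -0.36 (limma adjusted p = 0.65), and 11.35 on both *Nanos2* −/−_Tg+ arrays. *Bcl2l12* was -0.44 from *Nanos2* +/− in *Nanos2* −/−, where its replicates read 11.52 and 10.9. *Bad*, which encodes a BH3-only protein under the control of survival kinases, and *Bcl2a1b* differed by at most 0.32 and 0.27 in size, with overlapping arrays. *Bcl2a1b* has near-identical copies that its probe may not tell apart.

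All 20 genes of the caspase cascade and its inhibitors were tested. Their medians were -0.08, -0.07 and 0.01 on the log2 scale, beside -0.04, -0.01 and 0.03 over all tested probes, and 14, 14 and 9 of 20 lay under 0. Arrays did not overlap for 9, 7 and 6 of the 20, beside 36, 38.9 and 31.4% of all tested probes. *Casp9*, the initiator that the apoptosome activates after BAX and BAK1 have acted, stood at 12.28 and 12.63 in *Nanos2* +/−, 11.56 and 12.13 in *Nanos2* −/−, and 12.05 and 12.23 in *Nanos2* −/−_Tg+. Its log2 differences from *Nanos2* +/− were -0.61 and -0.31 (limma adjusted p = 0.525 and 0.706). *Casp8*, the initiator under death receptors, went the other way, at 10.05 and 10.06 in *Nanos2* +/− and 10.31 and 10.49 in *Nanos2* −/− (0.34, limma adjusted p = 0.654). The *Nanos2* +/− arrays did not overlap with those of *Nanos2* −/− for *Casp9* or *Casp8*.

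**Figure D4:**
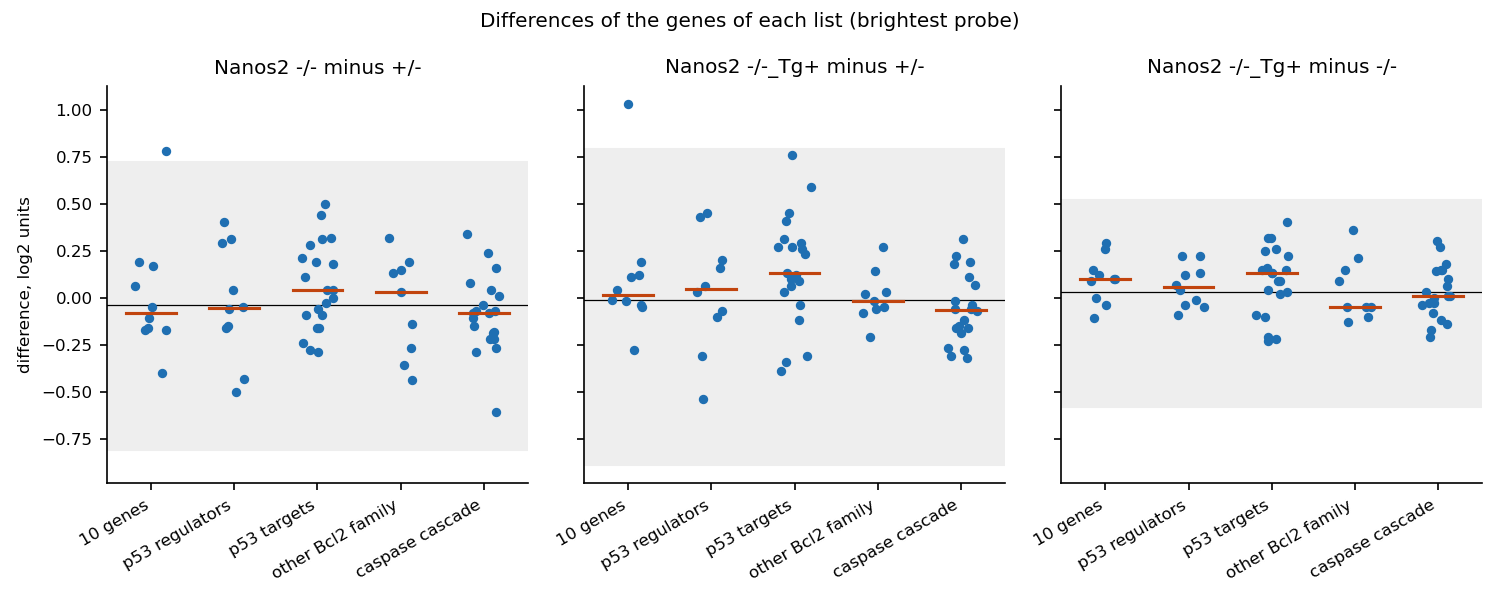
Log2 differences of the genes of each list by their brightest probe (blue points are genes, red lines list medians, the grey band the central 95% of all tested probes and the black line their median). Of the points shown, *Pmaip1* alone lies above the band, in both comparisons with *Nanos2* +/−, where the band ends at 0.72 and 0.79.

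The cell types of the gonad were compared through their markers, as the 10 genes are not particular to germ cells. Summed signals in *Nanos2* +/−, *Nanos2* −/− and *Nanos2* −/−_Tg+ were 126000 to 187000, 135000 to 184000 and 152000 to 174000 for 8 Sertoli cell markers, and 91900 to 106000, 89300 to 95100 and 80600 to 97000 for 4 Leydig cell markers. These ranges overlapped. The sum of 5 erythroid markers did not overlap, at 171000 to 191000, 141000 to 155000 and 203000 to 210000. The 4 endothelial markers summed to 5730 to 5760, 5200 to 5530 and 5360 to 6270, and 4 macrophage markers to 950 to 1130, 900 to 1070 and 970 to 992. Mesonephros markers were low, at 286 to 1120, 456 to 705 and 298 to 510, with *Pax2* not well above background on any array. The paper reports, from these same arrays, *Dppa5* and *Dppa3* as raised and *Tdrd1* as lowered in gonads without NANOS2. Here *Dppa5a*, *Dppa3* and *Tdrd1* differed by 0.64 ± 0.376, 0.24 ± 0.376 and -0.66 ± 0.224 (SE) between *Nanos2* −/− and *Nanos2* +/−. Their limma adjusted p was 0.697, 0.903 and 0.423, and the arrays overlapped for *Dppa5a* and *Dppa3*. The largest difference of the 10 markers was that of *Dnd1*, at -0.81 (limma adjusted p = 0.257). As the markers went both ways, their sum cannot be read as an amount of germ cells alone. Among the 10 germ cell markers 3, 6 and 8 were higher in the first-named genotype of the 3 comparisons, with median log2 differences of -0.1, 0.08 and 0.15, and 0 were called. Whether these shifts have a part in the values of the 10 genes was not tested.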

How the data were processed

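Total RNA (200 ng an array) of E14.5 male gonads had been labelled with Cy3 and hybridized to 1-colour Agilent whole mouse genome arrays, 2 for each of 3 genotypes, which were taken from the sample labels. The deposited scanner files give spot intensity with background already subtracted by the authors' image software (Agilent Feature Extraction 9.5 in the submitters' processing notes). The methods then raise values to 5, scale each array to the 50th percentile and centre each gene. A deposited table over all samples repeats these intensity values within 0.497% and served as an alternative.

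Here 1639 control spots and 54 to 82 outlier spots an array were left out, arrays were scaled to the 50th percentile, values under 5 were raised to 5 and put on log2, and spots were averaged per probe (41174 probes, 23374 with a RefSeq symbol through the design accession). Scaling factors ran from 0.885 to 1.29, 64.1 to 66.7% of probes were well above background, and no spot was saturated. The lowest log2 signals well above background were 3.48 to 3.85. The number of arrays limits the precision.

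The 26712 probes that 1 genotype or more had well above background on each of its arrays were fitted across all genes with limma 3.58.1 (lmFit and eBayes over 6 arrays, 1 mean a genotype, prior df 4.55; R 4.3.3). Calls needed a Benjamini-Hochberg adjusted p below 0.05 and 2-fold. The limma test was checked on simulated data with changes larger than any difference of the 10 genes, so the check does not cover differences of their size. No probe of the 10 genes had a missing array value. Whether the arrays of a genotype came from separate embryos is not stated, so p-values measure the spread between these arrays. The brightest probe stands for a gene. Named are all 10 genes by every probe, *Nanos2*, the germ cell markers, genes that were not measured and, from each wider list, in each comparison the 2 genes with the largest difference that were well above background on all arrays (no list gene was called). Some genes that this rule names are not reported here. The 10 genes and the lists were chosen with earlier results of these data known. The methods' t-test was run with equal variances, unadjusted. Promoter windows are from RefSeq (GRCm38.p6), and Python 3.11.15, pandas 2.3.3 and matplotlib 3.10.9 were used for them and the figures.

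As alternatives, the scaling was replaced by the 75th percentile or quantile normalization, or the background by normexp (offset 50, on the median spot and background signals, since the files used here hold no mean signal). The floor was set before the scaling or at 20, and other filters, kept outlier spots, the table over all samples, the replicate number as a block, the 4 arrays compared alone, the mean of a gene's probes and leaving out each array were tried.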

Additional observations from a re-analysis of the deposited data

How the results depend on the processing

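No alternative called any of the 10 genes: 0 were called in each comparison under all 18 settings and under the methods' t-test, and the lowest limma adjusted p over 540 values was 0.131, for *Pmaip1* in *Nanos2* −/−_Tg+ over *Nanos2* +/− with the replicate number as a block. That block called 18, 144 and 4 of all probes in the 3 comparisons, which are taken here in the order *Nanos2* −/− minus *Nanos2* +/−, *Nanos2* −/−_Tg+ minus *Nanos2* +/− and *Nanos2* −/−_Tg+ minus *Nanos2* −/−. It left the log2 difference of *Pmaip1* at 0.78, 1.03 and 0.26, with limma adjusted p of 0.271, 0.131 and 0.996. Deviations of same-numbered arrays correlated at 0.355, 0.313 and 0.259, but the labels do not say what a number shares, and with 2 arrays a genotype it was not taken as a pairing. In all, 50 of the 540 differences had another sign than the main value, and the cause was not tested.

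Normexp correction moved the median of the 10 genes to 0.77 and 0.84 against *Nanos2* +/−, where the median of all probes moved to 0.56 and 0.52. It gave 0.68 and 0.74 for *Bak1*, 0.75 and 0.8 for *Bcl2*, 0.46 and 0.54 for *Bcl2l1*, 0.78 and 0.93 for *Mdm2*, 1.71 and 1.91 for *Pmaip1*, 1.1 and 1.06 for *Bax*, 0.69 (*Bbc3*) and 0.93 (*Mcl1*) for the first comparison, 0.51 for *Cdkn1a* in the second and -0.03 for *Bax* in the third. Quantile normalization gave 0.06 for *Mcl1* in the first, 0.01 for *Bcl2* in the second and -0.03 for *Bax* in the third, where the 75th percentile gave -0.02. The mean of a gene's probes gave 0.05 and 0.07 for *Bak1*, 0.03 for *Mcl1* in the first, -0.08 for *Trp53* in the second and -0.01 for *Mdm2* in the third.

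With each array left out, the median of the 10 genes ranged from -0.26 to 0.19, from -0.2 to 0.23 and from 0.04 to 0.14, the outer values against *Nanos2* +/− being those without *Nanos2* +/− replicate 1 or 2. Single genes ranged, where the sign turned, from -0.33 to 0.02 and -0.23 to 0.12 (*Bak1*, first and second comparison), from -0.18 to 0.55, -0.18 to 0.56 and -0.1 to 0.11 (*Bax*, all 3), from -0.36 to 0.01 and 0 to 0.23 (*Bbc3*, first and second), from -0.39 to 0.16, -0.29 to 0.27 and -0.06 to 0.27 (*Bcl2*, all 3), from -0.31 to 0.44, -0.41 to 0.33 and -0.22 to 0.01 (*Cdkn1a*, all 3), from -0.33 to 0.22, -0.24 to 0.31 and -0.02 to 0.2 (*Mcl1*, all 3), from -0.07 to 0.02 (*Mdm2*, second), from -0.21 to 0.72 (*Pmaip1*, the third), and from -0.04 to 0.28 and -0.2 to 0.12 (*Trp53*, the second and the third).

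The counts over all probes moved more. Against main counts of 18, 28 and 5, they were 5, 10 and 4 with the 75th percentile, 5, 9 and 3 with quantile normalization, 0 in each with normexp or a floor of 20, 1, 5 and 1 for probes well above background on all arrays, 2, 4 and 0 without a filter, 38, 85 and 1 with the 4 arrays compared, and 153, 235 and 40 by the methods' t-test. With an array left out they ranged from 13 to 47, 21 to 85 and 1 to 29.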
